A study of Mus musculus with 20 samples.

Results

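Granzymes and the rest of the cytotoxic machinery of T cells were followed as 10 genes of the 17101 in a table of normalized counts. They were *Gzma*, *Gzmb*, *Gzmk*, *Gzmc* and *Gzmm*, the perforin gene *Prf1*, the granule genes *Nkg7*, *Srgn* and *Lamp1*, and the death ligand gene *Fasl*, each taken by its symbol with no measured value in the rule. The study asked how loss of DNMT3a in donor T cells changes alloreactivity after marrow transplantation. RNA-Seq was performed on splenic donor T cells sorted by flow cytometry on day +10 after transplant in the B6→F1 model, in which irradiated F1 mice receive B6 grafts. KO donors had the genotype DNMT3a KO (CD4-Cre 2loxP) the study's WT controls were littermates, donors were 6 to 12 weeks old and recipients 8 to 12 weeks old, and the strain label of every library reads primary. The 5 groups of 4 libraries were KO CD4+, WT CD4+, KO CD8+, WT CD8+ and KO CD4+CD8+ double-positive (DP) cells, with no group of WT DP cells among them. Cre was driven by the *Cd4* promoter, which is active in thymocytes that give rise to both lineages, so the KO CD8+ cells carry the deletion as well. The KO libraries are numbered by animals 1, 2, 3 and 4 and the WT libraries by animals 2, 3, 5 and 6, and values per library are given below in that order.

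Cytotoxic lymphocytes kill by releasing lytic granules into the contact with a target cell, where perforin opens the membrane to granzymes, serine proteases that then cleave proteins of the target. A separate route uses FAS ligand on the surface of the killer cell, which engages FAS and sets off caspases in the target. Both routes are known effector pathways of donor T cells in GVHD, and granzymes and perforin are a mark of effector CD8+ T cells more than of CD4+ T cells.

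Between 37547651 and 46966318 reads fell on genes per library, with 39805175 to 46604070 in KO CD4+, 37547651 to 44963524 in WT CD4+, 39307777 to 45420708 in KO CD8+, 42563528 to 46771383 in WT CD8+ and 41439155 to 46966318 in KO DP cells. Each of the 10 genes had reads in all 20 libraries and a mean normalized count of at least 10 in every comparison, so none was left out. The unit throughout is the normalized count, the reads of a gene divided by 1 size factor per library. Some libraries stood apart. The DP library of KO animal 3 had 11783 genes with reads, against 13203 to 14198 in the other KO DP libraries and 14421 to 14677 in the WT libraries, and it had the lowest size factor, 0.806. In the CD8+ and DP libraries of KO animal 2 the 10 genes together held 1.32% and 1.31% of the reads, against 0.526% to 0.924% in the other KO CD8+ and DP libraries. *Gzma* alone held 0.504% and 0.505% there. Values without the libraries of KO animal 2 are given beside the levels of *Gzma*, the spread and the correlations below, while the group means of the other genes include them.

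*Dnmt3a* was read first, as the check of the genotype labels. Its normalized count was 1658, 1628, 1640 and 1385 in KO CD4+ libraries and 4906, 4690, 4839 and 5171 in WT CD4+ libraries. In CD8+ cells it was 2007, 1287, 1515 and 1664 in KO and 3549, 3542, 3756 and 3812 in WT libraries, and in KO DP cells 1571, 1021, 650 and 1332. All KO values were under all WT values of the same subset (limma log2 fold change of -1.64 in CD4+ and -1.20 in CD8+ cells, adjusted p = 1.26e-05 and 0.000654). The subset labels were read from *Cd4*, *Cd8a* and *Cd8b1*. *Cd4* lay between 44804 and 74386 in the CD4+ libraries, between 8758 and 15351 in KO DP, between 302 and 458 in KO CD8+ and between 9.88 and 79.6 in WT CD8+ libraries. *Cd8a* lay between 41594 and 68740 in the CD8+ and DP libraries. The CD4+ library of KO animal 1 had a *Cd8a* count of 3771, against 78.3 to 586 in the other CD4+ libraries, and a *Cd8b1* count of 4515, against 285 to 789. Its *Cd8a* count was 6.50% of that in the CD8+ library of the same animal, and 0.114% to 0.852% in the other animals. *Cd3e* lay between 16885 and 29178 in all libraries. In bulk RNA, fewer cells that express a gene and less of its RNA per cell cannot be told apart.

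**Figure D1:**
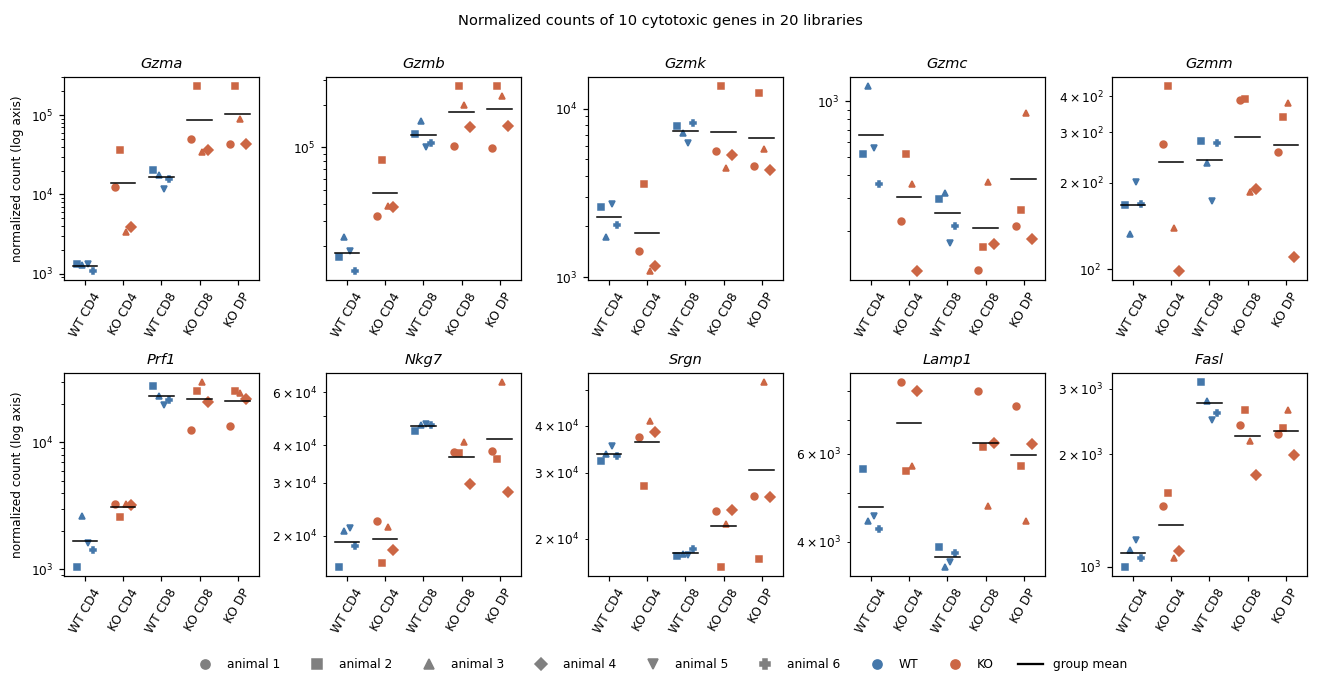
Normalized counts of the 10 genes on log axes, with 1 point per library, shapes for animals, colours for genotype and a bar at the mean of the 4 libraries of a group. *Gzma* in the CD8+ and DP libraries of KO animal 2 reached 229921 and 232859, while the 4 WT CD4+ libraries lay between 1099 and 1317.

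Levels were compared between genes only per kilobase of exon, from the group means. In WT CD4+ cells *Nkg7* (23350 normalized counts per kb), *Srgn* (19530) and *Gzmb* (11980) led, and *Gzmm* (119) was lowest. In KO CD4+ cells *Gzmb* led with 31450 per kb, *Gzma* reached 15850, where it was at 1429 in WT CD4+ cells, and *Gzmm* was again lowest with 168. *Gzmb* led in WT CD8+, KO CD8+ and KO DP cells with 80310, 117800 and 122400 per kb. *Nkg7* came next in WT CD8+ cells (56970), and *Gzma* in KO CD8+ and KO DP cells (99230 and 116100). Several of these levels rest on animal 2. Without it *Gzma* was at 7429 per kb in KO CD4+, 45320 in KO CD8+ and 66670 in KO DP cells, and *Nkg7* (25210) rather than *Gzmb* (24120) led in KO CD4+ cells. *Gzma* rather than *Gzmb* led in KO CD8+ cells without animal 3 and in KO DP cells without animal 3 or 4. The median coefficient of variation of the 10 genes was 34.3% in KO CD4+, 36.9% in KO CD8+ and 43.1% in KO DP cells, against 15.03% in WT CD4+ and 13.5% in WT CD8+ cells. Without animal 2 the KO medians were 16.3%, 23.6% and 43.05%, and that of KO DP cells was 25.4% without animal 3. *Gzma* had the highest value in each KO group (110%, 109% and 87.8%) and *Gzmc* in each WT group (57.0% and 28.0%). Without animal 2 *Gzma* came to 76.6%, 21.2% and 46.1%, and *Gzmc* was the highest in KO CD8+ (59.2%) and KO DP cells (92.3%). It was also the highest in KO DP cells without animal 1 (86.3%) or 4 (81.9%), and in WT CD4+ cells it came to 22.1% without animal 3.

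The comparison of KO with WT cells of the same subset asks how these genes differ between the genotypes on day +10. Genotype and the handling of the cells cannot be told apart in it, as given with the stress genes below. Each gene was tested with limma on log2(normalized count + 1) among all genes tested, so that fold changes understate the change of low genes, and a call means a Benjamini-Hochberg adjusted p under 0.05. In CD4+ cells 4 of the 10 genes passed, *Gzma*, *Gzmb*, *Prf1* and *Lamp1*, and 4 of 4 were higher in KO cells. Of all 12391 genes tested 18.4% passed, 8.59% higher and 9.77% lower. KO and WT libraries did not overlap for 2 of the 10 genes, against 25.6% of all genes. The median log2 fold change was 0.26 over the 10 genes and -0.05 over all genes. Leaving out WT replicate 6 lowered the count of called members from 4 to 1, *Gzmb*, and leaving out WT replicate 5 lowered it to 2, while it was 6 without KO replicate 2. The count over all genes, 2274, fell to 1352 without KO replicate 1 and to between 628 and 1106 without WT replicate 2, 3, 5 or 6.

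In CD8+ cells 3 of the 10 genes passed, *Gzma* and *Lamp1* higher and *Nkg7* lower in KO cells. Of all 12383 genes 25.2% passed, 12.6% higher and 12.5% lower. The same 3 genes did not overlap between KO and WT libraries, against 30.6% of all genes. The median log2 fold change was 0.04 over the 10 genes and -0.04 over all genes. The count of called members fell from 3 to 1, *Lamp1*, without WT replicate 2, 3, 5 or 6, and rose to 5 without KO replicate 2. Over all genes it fell from 3118 to between 1633 and 1753 without WT replicate 2, 3, 5 or 6.

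**Figure D2:**
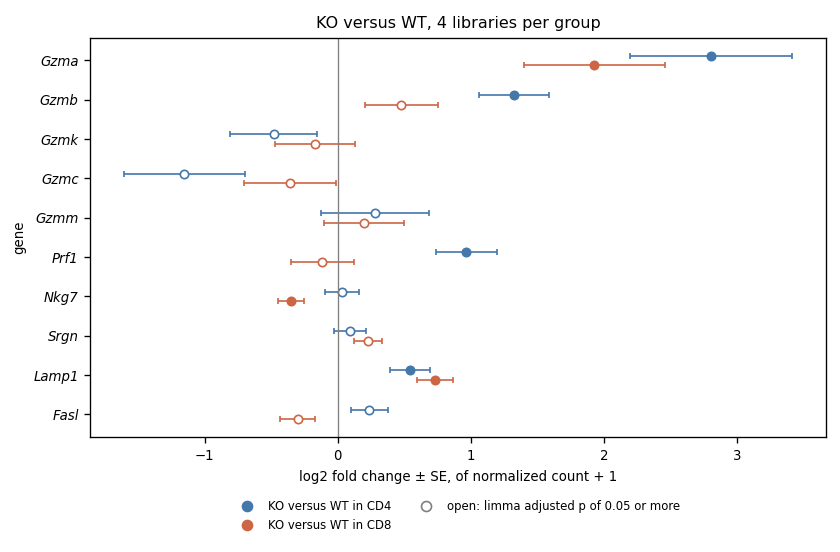
Log2 fold change of each gene in KO against WT cells with its SE, on log2(normalized count + 1), in CD4+ and in CD8+ cells. Filled points passed limma's adjusted threshold, and the highest values are those of *Gzma*, 2.80 in CD4+ and 1.93 in CD8+ cells.

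*Gzma* encodes granzyme A, a tryptase of the lytic granule, and lies on chromosome 13 from 113093824 to 113100981 (GRCm38.p6). Its normalized count was 12327, 36222, 3372 and 3937 in KO CD4+ libraries and 1317, 1304, 1316 and 1099 in WT CD4+ libraries. All 4 KO libraries lay above all 4 WT libraries, with animal 2 highest and animals 3 and 4 lowest. KO exceeded WT by a log2 fold change of 2.80 with an SE of 0.61, or 6.98-fold (limma adjusted p = 0.0152). On whole reads edgeR gave 3.48 (adjusted p = 0.0108) and DESeq2 3.49 (0.000252). Without KO replicate 2 it was 2.12 (limma adjusted p = 0.00584), and without KO replicate 1, the library with *Cd8a* reads, 2.64 (0.0402). It was not called without WT replicate 6 (2.74, 0.0545), and over all libraries left out in turn adjusted p ran from 0.00584 to 0.0545. In CD8+ cells *Gzma* was 49663, 229921, 34225 and 35880 in KO and 20577, 17492, 11804 and 15752 in WT libraries. Again no KO library lay below a WT library, and animal 2 was far above the other KO libraries. Here the log2 fold change was 1.93 with an SE of 0.53 (limma adjusted p = 0.0276). It was 1.29 without KO replicate 2 (0.00525), and not called without WT replicate 2 (2.05, 0.0545), 3 (1.97, 0.0643), 5 (1.78, 0.0791) or 6 (1.92, 0.0708). DESeq2 on whole reads gave 2.43 and returned no adjusted p, so it neither called *Gzma* nor failed to call it. The joint fit of 20 libraries did not call *Gzma* (limma adjusted p = 0.0574). The KO DP values were 43620, 232859, 90003 and 42580, above every WT library of either subset.

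Ordered by group means, *Gzma* ran from KO DP (102266 ± 89827, SD, n = 4) and KO CD8+ (87422 ± 95251) through WT CD8+ (16406 ± 3660) and KO CD4+ (13964 ± 15393) to WT CD4+ cells (1259 ± 107). Without KO animal 2 the means were 58734 ± 27085 in KO DP, 39923 ± 8475 in KO CD8+ and 6545 ± 5015 in KO CD4+ cells (SD, n = 3), in the same order. KO DP overlapped with KO CD8+ and WT CD8+ with KO CD4+ libraries, while KO and WT libraries of a subset did not overlap. The CD4+ library held 9.85% to 24.8% of the *Gzma* count of the CD8+ library of the same animal in KO and 6.40% to 11.2% in WT cells. The 24.8% was that of KO animal 1, whose CD4+ library had *Cd8a* reads. The part of these reads in its *Gzma* count was not tested.

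*Gzmb* encodes granzyme B, which cleaves after aspartate and activates caspases, and lies on chromosome 14 from 56258836 to 56262334. In CD4+ cells its normalized count was 32778, 80806, 38648 and 37996 in KO and 16784, 23463, 18673 and 13543 in WT libraries. The KO libraries all lay above the WT libraries, and animal 2 was again highest. This came to a log2 fold change of 1.32 with an SE of 0.26 (limma adjusted p = 0.0112), and 1.03 without KO replicate 2 (0.00445). It was called with each library left out in turn, with adjusted p between 0.00445 and 0.0457. In CD8+ cells the count was 102721, 270098, 199627 and 139916 in KO and 123834, 153597, 100264 and 107998 in WT libraries. The groups overlapped, with KO animals 1 and 4 inside the WT range and animals 2 and 3 above it. A log2 fold change of 0.48, with an SE of 0.27, did not pass (limma adjusted p = 0.222). It passed only without KO replicate 1 (0.71, limma adjusted p = 0.0441). Without KO replicate 2 it was 0.25 (limma adjusted p = 0.449, the highest over the libraries left out). In DP cells of the same animals the count was 99141, 270285, 229806 and 140935. In order of the means, KO DP (185042 ± 78729, SD, n = 4), KO CD8+ (178090 ± 73183) and WT CD8+ (121423 ± 23586) overlapped with their neighbours, while KO CD4+ (47557 ± 22321) and WT CD4+ libraries (18116 ± 4147) were each apart from the group above.

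*Gzmk*, the gene of granzyme K, another tryptase, lies 70648 bases from *Gzma* on chromosome 13. Its normalized count was 1441, 3577, 1096 and 1172 in KO CD4+ and 2624, 1729, 2719 and 2037 in WT CD4+ libraries. KO animal 2 lay above all WT libraries and the other KO libraries lay below them. Over all libraries the log2 fold change was -0.48 with an SE of 0.33 (limma adjusted p = 0.311), and without KO replicate 2 it was -0.87 and passed (0.00903, against up to 0.534 with other libraries left out). The CD8+ counts were 5629, 13609, 4438 and 5310 in KO and 7844, 7185, 6286 and 8232 in WT libraries. The same split was seen, with animal 2 above and the other KO libraries below the WT range, and the log2 fold change was -0.17 (limma adjusted p = 0.693), or -0.53 without KO replicate 2, which passed (0.0153, against up to 0.9801 with other libraries left out). Its sign turned without KO CD8+ replicate 3 (0.01). DP libraries had 4545, 12308, 5728 and 4296. In order of the means WT CD8+ (7387 ± 852, SD, n = 4), KO CD8+ (7247 ± 4272) and KO DP (6719 ± 3778) overlapped, as did WT CD4+ (2278 ± 474) and KO CD4+ (1821 ± 1180), with a gap between DP and WT CD4+ libraries.

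*Gzmc* and *Gzmm*, the genes of granzymes C and M, had few reads. *Gzmc* ranged from 122 to 518 in KO CD4+, 358 to 1213 in WT CD4+, 122 to 368 in KO CD8+, 171 to 319 in WT CD8+ and 181 to 870 in KO DP libraries. It was the only granzyme gene of the 5 with its highest group mean in CD4+ cells, 662 ± 377 (SD, n = 4) in WT CD4+ cells, and each group overlapped with its neighbour in the order of means. KO was below WT by a log2 fold change of -1.15 in CD4+ cells (limma adjusted p = 0.0974), which passed without KO replicate 2 (-1.47, 0.0360, against up to 0.237 with other libraries left out), and by -0.36 in CD8+ cells (0.459). *Gzmm* ranged from 98.8 to 434 over all libraries, overlapped between all neighbouring groups, and differed by 0.28 in CD4+ and 0.20 in CD8+ cells (limma adjusted p = 0.641 and 0.649). Its sign in CD4+ cells turned without KO replicate 2 (-0.09), and the difference in CD8+ cells came to 0.02 without KO replicate 2. *Gzmc* lies 17188 bases from *Gzmb* in a cluster of granzyme and mast cell protease genes on chromosome 14, and its near-identical neighbours share sequence with it, so the split of reads among them is uncertain. Of 13 other genes of the cluster 8 were in the table, and their highest count in any library was 78.6 (*Gzmf*, KO DP). In WT CD8+ libraries *Gzmf* reached 35.9 to 69.5, *Gzmd* 3.49 to 26.9 and *Gzme* 2.88 to 14.4. *Gzmg*, *Mcpt2* and *Cma1* did not exceed 11.9, 1.80 and 5.15 in any library, *Ctsg* did not exceed 68.3 and *Mcpt8* 76.3. Too few reads left 1 of these genes tested between KO and WT in CD4+ and 3 in CD8+ cells, with 0 called by limma.

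*Prf1* encodes perforin and lies on chromosome 10 from 61297751 to 61304684. The normalized count was 3287, 2595, 3270 and 3200 in KO CD4+ and 1042, 2627, 1600 and 1403 in WT CD4+ libraries. KO libraries 1, 3 and 4 lay above the WT range, and the lowest, KO animal 2, lay just below the highest, WT animal 3. KO cells were higher by a log2 fold change of 0.96 with an SE of 0.23 (limma adjusted p = 0.0200). Without KO replicate 1, the library with *Cd8a* reads, it was 0.93 (limma adjusted p = 0.0493). *Prf1* was not called without WT replicate 5 (0.97, 0.0509) or WT replicate 6 (0.91, 0.0684). Its adjusted p ran from 0.00591 to 0.0684 over the libraries left out. The part of CD8+ cells in the *Prf1* count of KO replicate 1 was not tested. In CD8+ cells *Prf1* was 12558, 25631, 29935 and 20818 in KO and 28092, 23163, 19708 and 21655 in WT libraries. KO libraries lay on both sides of the WT range. A log2 fold change of -0.12, with an SE of 0.24, did not pass (limma adjusted p = 0.741), and its sign turned without KO replicate 1 (0.13). DP libraries had 13443, 25347, 24707 and 22177. The means of WT CD8+ (23154 ± 3583, SD, n = 4), KO CD8+ (22236 ± 7450) and KO DP cells (21419 ± 5491) overlapped in their libraries, KO CD4+ (3088 ± 331) lay apart below them, and WT CD4+ (1668 ± 680) overlapped with KO CD4+ libraries.

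*Nkg7* encodes a membrane protein of the granule needed for degranulation. In CD8+ cells its normalized count was 37953, 37561, 40864 and 29770 in KO and 44610, 46786, 47076 and 46795 in WT libraries. All KO libraries lay below all WT libraries. With a log2 fold change of -0.35 and an SE of 0.10 it passed (limma adjusted p = 0.0287), at 0.0134 to 0.0794 with a library left out, and it was not called without WT replicate 2 (-0.37, 0.0623), 3 (-0.35, 0.0773), 5 (-0.34, 0.0794) or 6 (-0.35, 0.0791) or in the joint fit of 20 libraries (0.202). In CD4+ cells KO libraries lay between 16258 and 22278 and WT libraries between 15740 and 21129, with a log2 fold change of 0.03 (limma adjusted p = 0.870) that was -0.09 after quantile normalization and below 0 without KO replicate 1 (-0.04) or 3 (-0.02) or WT replicate 2 (-0.05). KO DP libraries had 38351, 36090, 64859 and 27971, with animal 3 far above the others. By group means *Nkg7* ran from WT CD8+ (46317 ± 1146, SD, n = 4) through KO DP (41818 ± 15994), KO CD8+ (36537 ± 4746) and KO CD4+ (19436 ± 2841) to WT CD4+ cells (18981 ± 2464), and only KO CD8+ and KO CD4+ among these neighbours did not overlap.

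*Lamp1* encodes a membrane protein of lysosomes and granules that appears at the cell surface when granules fuse. The normalized counts were 7997, 6194, 4706 and 6295 in KO CD8+ and 3899, 3563, 3648 and 3804 in WT CD8+ libraries. Each KO library lay above each WT library, and the log2 fold change was 0.73 with an SE of 0.14 (limma adjusted p = 0.00627). It was called with each library left out in turn, at adjusted p between 0.000795 and 0.0244. In CD4+ cells *Lamp1* was 8347, 5554, 5677 and 8020 in KO and 5599, 4407, 4499 and 4236 in WT libraries. KO libraries were higher except that WT animal 2 lay between KO animals 2 and 3. A log2 fold change of 0.54, with an SE of 0.15, passed (limma adjusted p = 0.0332, and 0.0154 to 0.102 with a library left out), but not without KO replicate 1 (0.44, 0.0769), KO replicate 4 (0.46, 0.0671), WT replicate 3 (0.51, 0.0867), 5 (0.52, 0.0821) or 6 (0.50, 0.102). KO DP libraries had 7492, 5683, 4406 and 6290. Unlike the granzyme and perforin genes, *Lamp1* had its lowest mean in WT CD8+ cells (3728 ± 152, SD, n = 4), apart from WT CD4+ libraries (4685 ± 619), and the means of KO DP (5968 ± 1284), KO CD8+ (6298 ± 1346) and KO CD4+ cells (6899 ± 1490) overlapped with their neighbours.

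*Srgn* encodes serglycin, the proteoglycan that holds granzymes and perforin in the granule. By group means it was highest in CD4+ cells, with 27686 to 41156 in KO and 32214 to 35356 in WT libraries. Its counts lay between 16832 and 23917 in KO CD8+ and between 17960 and 18730 in WT CD8+ libraries. KO DP libraries had 26001, 17702, 52348 and 25893, and all neighbouring groups overlapped. KO differed from WT by 0.09 on the log2 scale in CD4+ cells (limma adjusted p = 0.598), turning to -0.12 after quantile normalization, and 0.23 in CD8+ cells (0.148), where it passed without KO replicate 2 (0.34, 0.00813, against up to 0.292 with other libraries left out).

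*Fasl* encodes FAS ligand. Its normalized count was 1450, 1577, 1053 and 1101 in KO CD4+ and 998, 1110, 1181 and 1053 in WT CD4+ libraries, and 2390, 2633, 2171 and 1760 in KO CD8+ and 3123, 2788, 2478 and 2581 in WT CD8+ libraries. The genotypes overlapped in either subset. On the log2 scale KO differed by 0.24 with an SE of 0.14 in CD4+ (limma adjusted p = 0.248) and -0.30 with an SE of 0.13 in CD8+ cells (0.110), and neither passed with any library left out. DP libraries had 2261, 2353, 2636 and 1986. In the order of means only KO CD8+ (2239 ± 371, SD, n = 4) and KO CD4+ libraries (1295 ± 258) were apart among neighbours.

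Whether the genotype effect differed between subsets was tested as an interaction over 16 libraries. With limma 0 of the 10 genes passed, 3 had an unadjusted p under 0.05, as did 793 of 12446 genes tested, and edgeR and DESeq2 on whole reads each called 0 of them. Over all genes 0.0161% passed, 0.0161% with a higher and 0% with a lower change in CD8+ cells. The log2 difference, CD8+ minus CD4+, was -1.08 for *Prf1*, -0.54 for *Fasl* and -0.38 for *Nkg7* (limma adjusted p = 0.561, 0.634 and 0.724), which were the 3 genes under an unadjusted p of 0.05. The shares above are of the fit that does not pair the CD4+ and CD8+ libraries of an animal. With the animal number as a block more of all genes passed, as given in the closing section. For *Gzmb* the log2 difference was -0.84 with an SE of 0.42 (limma adjusted p = 0.818). With that block it passed (limma adjusted p = 0.0271), and its adjusted p ran up to 1.00 over the alternatives. For *Gzma* it was -0.88 with an SE of 0.91 (0.9998), and -0.19 and -1.51 without the KO CD4+ and the KO CD8+ library of animal 2. The median was -0.23 over the 10 genes and -0.002 over all genes. Calls in only 1 subset, as those of *Gzmb*, *Prf1* and *Nkg7*, are not shown to differ between subsets by this test, other than that of *Gzmb* with the block. The 2 genes called among all fell to 0 without any KO CD4+ library except replicate 3, without KO CD8+ replicate 2 or 4, without any WT CD4+ library, and without WT CD8+ replicate 2, 5 or 6, and rose to 4 and 5 without KO CD8+ replicate 1 and 3.

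Subsets of the same genotype were compared to place the genes between CD4+ and CD8+ cells. In WT cells 10 of 10 genes passed, 7 higher and 3 lower in CD8+ cells, where 44.5% of all genes passed, 22.2% higher and 22.3% lower. The log2 fold change was 3.87 for *Prf1*, 3.68 for *Gzma*, 2.75 for *Gzmb*, 1.71 for *Gzmk*, 1.33 for *Fasl*, 1.30 for *Nkg7* and 0.51 for *Gzmm*, with limma adjusted p of at most 1.92e-07 except for *Gzmm* (0.0395). It was -1.30 for *Gzmc*, -0.88 for *Srgn* and -0.32 for *Lamp1* (limma adjusted p = 0.00339, 4.08e-09 and 0.00374). WT CD4+ and CD8+ libraries did not overlap for 9 of the 10 genes, all but *Gzmm*, against 41.8% of all genes. *Gzmm* was not called without WT CD4+ replicate 2, 3 or 6 or WT CD8+ replicate 2, 3 or 6 (limma adjusted p between 0.0581 and 0.115), nor without a filter (0.0599), while the joint fit of 20 libraries called 7, without *Gzmm*, *Gzmc* and *Lamp1* (0.524, 0.103 and 0.262). The median log2 fold change was 1.31 over the 10 genes and 0.01 over all genes.

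In KO cells 6 of 10 genes passed, where 4.22% of all genes did, 1.48% higher and 2.73% lower in CD8+ cells. The same 6 did not overlap between the groups, against 10.1% of all genes. The log2 fold change was 2.78 for *Prf1*, 2.02 for *Gzmk*, 1.91 for *Gzmb*, 0.91 for *Nkg7* and 0.79 for *Fasl*, and -0.74 for *Srgn* (limma adjusted p = 0.000484, 0.0294, 0.0149, 0.00722, 0.0321 and 0.0285). For *Gzma* it was 2.80 with an SE of 0.81, and the groups overlapped, since the CD4+ library of KO animal 2 (36222) lay above the CD8+ libraries of animals 3 and 4 (34225 and 35880). It did not pass (limma adjusted p = 0.0981) until the animal number was a block (2.59e-05), and it passed without KO CD4+ replicate 2 (3.48, 0.0301; 2.17 without KO CD8+ replicate 2) and in the joint fit of 20 libraries (0.0128), but not with any other single library left out (up to 0.260). edgeR did not call *Gzmk* (0.0515). *Prf1* and *Nkg7* were called with each single library left out, though *Nkg7* was not without both libraries of animal 3 (0.0530). *Gzmb* was not called without KO CD4+ replicate 3 or 4 (limma adjusted p = 0.0546 and 0.0504), nor *Gzmk* and *Fasl* without KO CD4+ replicate 1, 3 or 4 or KO CD8+ replicate 1 or 2 (up to 0.0933 and 0.0983), *Gzmk* without KO CD8+ replicate 4 (0.0549), *Fasl* without KO CD8+ replicate 3 (0.0624), and *Srgn* without KO CD4+ replicate 1, 3 or 4 or KO CD8+ replicate 2 or 3 (up to 0.0946). The count of called members was 7 with the block and fell to 3 without KO CD4+ replicate 1 or KO CD8+ replicate 2 and to 2 without KO CD4+ replicate 3 or 4. Over all genes it was 514, rose to 2305 with the block, and fell to 303, 233 and 267 without KO CD4+ replicate 1, 3 and 4 and to 278 without KO CD8+ replicate 2. The median was 0.85 over the 10 genes and 0.01 over all genes. Whether the subset difference itself changed with genotype is the interaction given above.

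**Figure D3:**
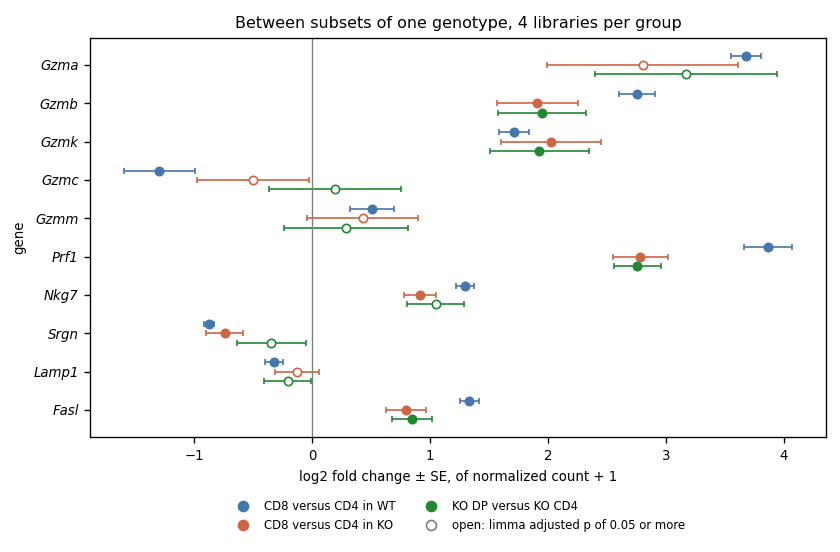
Log2 fold change with its SE, on log2(normalized count + 1), of CD8+ against CD4+ cells in WT and in KO, and of KO DP against KO CD4+ cells. *Prf1* had 3.87, 2.78 and 2.76, and open points did not pass limma's adjusted threshold.

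KO DP cells were set against both KO subsets to ask which of them their cytotoxic genes resemble. Against KO CD8+ cells limma called 0 of the 10 genes, 0 had an unadjusted p under 0.05, and edgeR and DESeq2 on whole reads called 0. Of 12153 genes tested 0.00823% passed (0.00823% higher, 0% lower), while 237 were under an unadjusted 0.05. The log2 fold changes ran from -0.14 (*Gzmm*) to 0.70 (*Gzmc*), with SEs between 0.16 and 0.69 without pairing, and with the animal number as a block 0 of the 10 passed as well (limma adjusted p between 0.405 and 0.901). The groups overlapped for each of the 10 genes, and did not overlap for 2.7% of all genes. Without DP replicate 3 the log2 fold change of *Nkg7* moved from 0.13 to -0.10 and that of *Srgn* from 0.39 to 0.10. That of *Gzmc* moved from 0.70 to 0.20 without the same library. The sign of *Gzmb* (0.04) turned to -0.05 after quantile normalization, as did that of *Nkg7*. The median was 0.05 over the 10 genes and -0.01 over all genes.

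Against KO CD4+ cells 4 of 10 genes passed, all higher in DP cells, where 1.95% of all genes passed, 0.682% higher and 1.26% lower. The log2 fold change was 2.76 for *Prf1*, 1.95 for *Gzmb*, 1.92 for *Gzmk* and 0.85 for *Fasl* (limma adjusted p = 0.000398, 0.0309, 0.0499 and 0.0362). These and *Gzma* and *Nkg7*, 6 of 10, did not overlap between the groups, against 11.2% of all genes. *Gzma* was higher by 3.17 with an SE of 0.77 and *Nkg7* by 1.05 with an SE of 0.24, and neither passed (limma adjusted p = 0.0708 and 0.0603). With the animal number as a block both passed (0.00884 and 0.0161), which raised the count to 6. *Gzma* passed without KO CD4+ replicate 2 (3.85, 0.0273), and *Nkg7* without DP replicate 3 (0.81, 0.0363) or 4 (1.22, 0.0402), against up to 0.219 and 0.168 with other libraries left out. Quantile normalization, DESeq2 and the joint fit of 20 libraries also called *Nkg7* (0.0206, 0.000684 and 0.00105), and the joint fit called *Gzma* (0.00470). *Prf1* was called with each library left out. The count fell to 1 without KO CD4+ replicate 1, 3 or 4 or DP replicate 2, and to 2 without DP replicate 1 or 3. *Gzmb* was then at adjusted p up to 0.108, *Gzmk* up to 0.167 and *Fasl* up to 0.120, with limma. *Gzmk* was not called without DP replicate 4 either (2.09, 0.0602), nor by edgeR (0.0814), without a filter (0.0518) or at a minimum mean of 50 (0.0522). Over all genes the count was 237, rose to 860 with the block, and fell to between 84 and 122 without any KO CD4+ library or DP replicate 2. The median was 0.95 over the 10 genes and -0.01 over all genes. Both comparisons of DP cells share the DP libraries, and each has the same 4 animals on both sides.

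Animals differed in several of the granzyme genes. *Gzma*, *Gzmb* and *Gzmk* were each highest in animal 2 in KO CD4+, KO CD8+ and KO DP cells. *Gzmc* was highest in animal 2 in KO CD4+ and in animal 3 in KO CD8+ and KO DP cells, and *Gzmm* in animal 2 in KO CD4+ and KO CD8+ and in animal 3 in KO DP cells. *Prf1* was lowest in KO animal 2 among KO CD4+ libraries, as was *Srgn* in all 3 KO groups. As a description over the 20 libraries, deviations from the group means on the log2 scale correlated between *Gzma* and *Gzmk* with Pearson's r = 0.937, between *Gzma* and *Gzmb* with 0.716, between *Gzma* and *Gzmm* with 0.791, between *Gzma* and *Fasl* with 0.774, and between *Gzma* and *Prf1* with 0.135. *Gzmb* and *Lamp1* had -0.640. Over the 17 libraries without KO animal 2 these were 0.639, 0.173, 0.773, 0.825, 0.0950 and -0.724 in the same order. Without KO animal 1, *Gzmb* and *Lamp1* had -0.353 and *Gzma* and *Prf1* -0.0411, and the latter pair had 0.288 without KO animal 3. Libraries of an animal are not independent, so these values carry no test. Among 10708 genes with a mean of at least 50, the deviations most like those of *Gzma* were those of *Gzmk*, *2610318N02Rik* (0.931) and *Mtch1* (0.920), those most like *Gzmb* were of *Haus4* (0.941), *Birc5* (0.940) and *Zmynd19* (0.933), and those most like *Prf1* were of *Islr* (0.813), *Cd80* (0.812) and *Pms2* (0.811). For the levels themselves over the same 20 libraries, the nearest genes were *Lgals3* (0.968), *Immt* (0.960) and *Me2* (0.957) for *Gzma*, *Ugcg* (0.964), *Ly6c2* (0.958) and *Cenpv* (0.951) for *Gzmb*, and *Cd244* (0.975), *Lat2* (0.970) and *St3gal6* (0.961) for *Prf1*. Without KO animal 2 only *Pms2* for the deviations and *Cd244* and *Lat2* for the levels, all for *Prf1*, stayed among the 3 nearest. No gene named for the deviations of *Prf1* stayed among them without KO animal 1 or WT animal 2 or 3. The same held for the deviations of *Gzmb* without KO animal 1 and of *Gzma* without KO animal 3. The 20 libraries share 5 groups, whose differences enter the correlations of levels.

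The bases upstream of *Gzma*, *Gzmb* and *Prf1* are shown because DNMT3a methylates CpG sites. The windows are from RefSeq for GRCm38.p6, 250 bases before the transcription start that its promoter table takes, 5′ to 3′ on the strand of the gene, with CpG sites in capitals. They lie at chr13:113100982-113101231 (minus strand), chr14:56262335-56262584 (minus strand) and chr10:61297586-61297835 (plus strand). Methylation was not analysed here.
Gzma: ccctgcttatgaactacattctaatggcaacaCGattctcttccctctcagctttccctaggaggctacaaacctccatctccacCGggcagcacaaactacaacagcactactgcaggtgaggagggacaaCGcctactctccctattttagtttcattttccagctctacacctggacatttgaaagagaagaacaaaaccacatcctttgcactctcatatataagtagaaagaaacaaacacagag
Gzmb: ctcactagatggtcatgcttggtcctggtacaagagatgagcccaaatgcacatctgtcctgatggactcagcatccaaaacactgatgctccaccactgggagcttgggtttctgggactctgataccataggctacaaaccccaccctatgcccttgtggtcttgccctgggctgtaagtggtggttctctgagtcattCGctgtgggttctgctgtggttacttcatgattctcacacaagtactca
Prf1: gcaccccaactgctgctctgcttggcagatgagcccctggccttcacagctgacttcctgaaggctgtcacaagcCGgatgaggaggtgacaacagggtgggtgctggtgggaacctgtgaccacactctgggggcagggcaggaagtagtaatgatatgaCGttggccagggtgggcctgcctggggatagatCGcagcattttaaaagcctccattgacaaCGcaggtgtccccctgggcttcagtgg
The windows hold 3, 1 and 4 CpG sites. The *Prf1* window precedes the start of the shorter of its annotated transcripts and runs past 61297751, where the gene's span begins, so its 3′ part lies inside that span.

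All 10 genes matched the RefSeq promoter table, with 12 windows, since *Gzmm* and *Srgn* have more than 1. The window of *Gzmc* and 1 each of *Gzmm* and *Srgn* lie within the span of the gene. The CpG count was 1 to 7 in 11 of them and 14 in that of *Lamp1*, and the median of all windows in the table was 6, with quartiles of 2 and 16. Letters known to be bound by factors of the cytotoxic program were searched on both strands. TGTGGT, bound by RUNX factors and present in 4614 of all 32851 windows, was found in those of *Gzma* (1 match), *Gzmb* (2), *Gzmc* (2), *Prf1*, *Nkg7* and *Lamp1* (1 each) and in 1 of 2 windows each of *Gzmm* and *Srgn*. GGTGTG, bound by T-box factors and present in 16.3%, was found in *Gzmk*, *Nkg7*, *Fasl* and 1 window of *Gzmm*, and its letters can overlap with those of the RUNX motif. The AP-1 motif TGAGTCA, present in 4.46%, was found in *Gzmb* alone of the 12 windows. The motif of STAT factors, TTCNNNGAA, present in 7.02%, was found in *Nkg7* and 1 window of *Gzmm*. A match is a description of the letters only.

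Genes around the cytotoxic machinery were read from lists, each by how many passed limma's adjusted threshold between KO and WT cells, where 8.59% of all genes were higher and 9.77% lower in CD4+ cells, and 12.6% higher and 12.5% lower in CD8+ cells. Among 8 tested genes that activate or inhibit granzymes, 1 was higher and 2 lower in KO CD4+ cells (median -0.15). In KO CD8+ cells 2 were higher and 2 lower (median -0.07). *Ctsc*, the protease that activates granzymes, rose by 0.32 in CD4+ cells (limma adjusted p = 0.0443), where *Ctsh* (-1.42, 0.0201) and *Serpinb6a* (-0.45, 0.0338) were lower. In CD8+ cells the serpin genes *Serpinb9b* (1.09, 0.0284) and *Serpinb6b* (0.47, 0.0368) were higher, and *Cst7*, a cystatin that inhibits *Ctsc*, (-1.08, 0.0155) and *Serpinb6a* (-0.68, 0.00298) were lower. Of 23 genes of granule biogenesis and exocytosis 4 were higher and 1 lower in CD4+ cells (median -0.001) and 7 higher and 1 lower in CD8+ cells (median 0.12). The tethering genes *Rab27a* (0.64 and 0.55, limma adjusted p = 0.00378 and 0.00590), *Sytl1* (0.85 and 0.60, 0.00544 and 0.0286) and *Sytl3* (0.73 and 0.45, 0.00924 and 0.0415) were higher in both CD4+ and CD8+ cells, *Calr* was lower in CD4+ cells (-0.52, 0.0484) and *Fcho1* in CD8+ cells (-0.43, 0.00322).

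Of 14 genes of death ligands and their receptor pathway 0 were higher and 1 lower in CD4+ cells (median -0.16), *Tnfsf10*, the gene of TRAIL (-0.96, limma adjusted p = 0.00915), and 1 was higher and 2 lower in CD8+ cells (median -0.04). *Fas* rose (0.52, 0.0294) and *Tnf* was among those lower (-1.24, 0.0405). The 21 transcription factor genes linked to the cytotoxic program include its drivers and factors of naive or memory cells, as *Foxo1* and *Id3*. Their counts and medians therefore span genes of unlike roles. In CD4+ cells 0 were higher and 2 lower (median -0.16), *Zeb2* (-1.08, 0.0195) and *Bhlhe40* (-0.41, 0.0480). KO CD8+ cells had 3 higher and 5 lower (median -0.24). In CD8+ cells *Foxo1* (0.46, 0.0194), *Stat5a* (0.27, 0.0417) and *Stat5b* (0.25, 0.0165) were higher, and *Id3* (-1.44, 0.0177), *Eomes* (-1.19, 0.00248) and *Zeb2* (-0.50, 0.0275) fell most. Of 10 genes of cytokine inputs to cytotoxic cells, namely receptor subunits for interleukins 2, 15, 12, 18 and 21 with *Jak1* and *Jak3*, 2 were higher and 2 lower in each subset (medians -0.09 and 0.10). *Jak1* was higher (0.39 and 0.61, limma adjusted p = 0.0332 and 0.0112) and *Jak3* (-0.74 and -0.92, 0.0177 and 0.00268) and *Il15ra* (-0.67 and -0.67, 0.0125 and 0.00619) were lower in CD4+ and CD8+ cells, while *Il2rb* was higher in CD4+ (0.52, 0.0312) and *Il12rb2*, of the interleukin 12 receptor, in CD8+ cells (0.40, 0.0391). The medians over all genes were -0.05 in CD4+ and -0.04 in CD8+ cells.

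Of 12 genes that respond to dissociation and heat stress, 9 were lower and 0 higher in KO cells of each subset by limma, with medians of -2.20 in CD4+ and -2.48 in CD8+ cells. *Hspa1a* had a mean of 40.8 in KO against 6240 in WT CD4+ cells, and of 25.7 against 3778 in CD8+ cells, with log2 fold changes of -7.26 and -7.42 (limma adjusted p = 0.000166 and 0.000593). Those of *Hspa1b* were -7.08 and -7.05 and those of *Fosb* -4.30 and -4.12. *Hspa1a* and *Hspa1b* share most of their sequence. The handling of the cells and genotype cannot be told apart in these values, and their part in the differences of the cytotoxic genes was not tested.

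Markers of other cells that carry granzymes or granules were read in the same libraries. Of 5 NK cell genes in the table, of which *Eomes*, also expressed by T cells, was most abundant, KO had 1 higher among CD4+ cells, while among CD8+ cells it had 1 higher and 2 lower. Their summed count was 514 to 1770 in KO CD4+, 697 to 1517 in WT CD4+, 2093 to 4735 in KO CD8+, 4231 to 5376 in WT CD8+ and 2322 to 3802 in KO DP libraries. The defining gene *Ncr1* was at 0 in all CD4+ libraries and at most 12.9 elsewhere. The gene that was higher was *Klrb1c*, which also led the 2 NKT genes in the table, of which *Zbtb16* was lower in KO CD4+ cells. Their sum was 229 to 1552 in KO CD4+, 137 to 201 in WT CD4+, 703 to 3075 in KO CD8+, 81.8 to 339 in WT CD8+ and 739 to 2607 in KO DP libraries. The highest *Klrb1c* counts were those of KO animal 4 (1547, 3066 and 2602 in CD4+, CD8+ and DP libraries). Of 2 γδ T cell genes in the table, led by *Il17a*, the sum did not exceed 23.9 in any library, and 0 were tested. The part of these cells in the granzyme counts was not tested.

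Other lists were read for carry-over into the sort. Of 7 B cell genes 2 were tested and both rose in KO CD4+ and 1 in KO CD8+ cells, led by *Cd79b*, with sums of 652 to 1126 in KO CD4+, 56.8 to 93.6 in WT CD4+, 1428 to 2282 in KO CD8+, 171 to 265 in WT CD8+ and 1623 to 2298 in KO DP libraries, while *Ms4a1* and *Pax5* did not exceed 4.39 and 7.35. Of 3 dendritic cell genes in the table, led by *Xcr1*, 3 were lower in KO cells of each subset, with sums of 145 to 295 in KO and 516 to 594 in WT CD4+ and 163 to 288 and 755 to 834 in CD8+ libraries. Monocyte genes, led by *Itgam*, had 0 higher in either subset and 2 of 6 lower in KO CD4+ cells. Neutrophil genes, led by *S100a9*, had 1 of 7 lower in each subset, and their sum ran from 2.94 in the DP library of KO animal 2 to 7334 in that of KO animal 3. Mast cell genes, led by *Kit*, had 1 lower in each subset, and platelet genes, led by *Itga2b*, 3 in CD4+ and 2 in CD8+ cells. The T cell genes, led by *Lck*, had 0 of 6 called in CD4+ cells, and *Cd247* higher and *Cd3e* lower in CD8+ cells. Of the subset genes, led by *Cd4* and *Cd8a*, none of 5 was called by limma in CD4+ cells, where *Cd8b1* had the lowest adjusted p (0.0773), and in CD8+ cells *Cd4* and *Cd8b1* were higher and *Runx3* lower. The part of these cells in the differences was not tested.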

How the data were processed

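Libraries of poly(A) RNA were assigned to 5 groups of 4 by the names in their labels. Alignment to mm10 with STAR (2.7.2b in the submitters' processing notes), strand-aware counting of read pairs over exons of UCSC genes and DESeq2 normalization are the work of the authors. The deposited table holds the resulting signal, reads divided by 1 size factor per library, for 17101 genes, with 0 columns not used. Each value is a multiple of the smallest value of its column, which gave whole reads for 100% of values within a tolerance of 1e-04, and the factors equal those DESeq2 computes (largest relative difference 4.2e-15).

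Tests were run in R 4.3.3 with limma 3.58.1 (a linear model per gene, moderated with a mean trend) on log2(normalized count + 1). Genes needed a mean of at least 10 over the libraries compared, tests were 2-sided, and p was adjusted by Benjamini-Hochberg over all genes tested, with a threshold of 0.05. The study used a count model on its counts. The alternatives were a pseudocount of 10, a minimum mean of 50 or none, quantile normalization, a common 75th percentile, edgeR 4.0.16 and DESeq2 1.42.0 on the whole reads, a joint fit of 20 libraries, a replicate block, and leaving out single libraries. Leaving out all libraries of an animal was chosen after seeing the data. edgeR called 2265 and 3055 genes between KO and WT in CD4+ and CD8+ cells, 1 and 192 between DP and KO CD8+ or CD4+ cells, 5539 and 457 between CD8+ and CD4+ cells in WT and KO, and 1 for the interaction, where DESeq2 called 3100, 3833, 3, 729, 5738, 959 and 21.

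Members and lists were chosen with earlier results of these data known. The lists hold neighbours in the chromosome 14 granzyme cluster, granzyme activation and inhibition, granule biogenesis and exocytosis, and death ligands and their receptor pathway. They also hold transcription factors of the cytotoxic program or of naive and memory cells. Further lists hold cytokine inputs (interleukin 2, 15, 12, 18 and 21 receptors and their kinases). The last hold dissociation and heat stress genes and markers of cell types, of which not all are described. Named are the cluster genes, from each other gene list genes out of the up to 3 called with the largest rises and the up to 3 with the largest falls between KO and WT at a mean of at least 50, the leading gene of each marker list described, and the 3 genes most correlated with *Gzma*, *Gzmb* and *Prf1*. *Klrb1c*, *Zbtb16*, *Ncr1*, *Ms4a1*, *Pax5*, *Cd247* and *Runx3* were chosen after their values were seen.

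Equal numbers within a genotype were taken as 1 animal, from the labels and from deviations from group means over 12411 genes. In KO, r was 0.412 to 0.498 between CD4+ and CD8+, 0.271 to 0.457 between CD4+ and DP and 0.338 to 0.538 between CD8+ and DP libraries of equal number, and in WT 0.120 to 0.196. Over all 190 pairs of libraries the lowest chi-square per degree of freedom was 11.0 within a group and 21.3 across groups, so no pair agreed within sampling noise. *Gzma* lies within *Cdc20b* on the opposite strand, and the counting took strand into account. Positions and windows are from RefSeq for GRCm38.p6. Python 3.11.15, pandas 2.3.3, numpy 2.4.6 and matplotlib 3.10.9 were also used.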

Additional observations from a re-analysis of the deposited data

Results flagged for a closer look

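A library was listed where it lay far from the other 3 of its group, with most of the range of the group between it and the nearest other. This held in 8 of 50 groups of 4 libraries. The rule was applied to normalized counts, not to their log2. Its rate of about 1 in 20 is for independent, normally distributed values, and these groups share animals. The count of 8 is therefore a description and is not compared with chance.

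Of these 8, 5 came from KO animal 2. *Gzma* was 229921 in its CD8+ library, against 34225 to 49663 in the others. *Gzmb* was 80806 in its CD4+ library, against 32778 to 38648. *Gzmk* was 3577 in its CD4+ library, against 1096 to 1441, and 13609 in its CD8+ library, against 4438 to 5629. *Prf1* was the lowest in its CD4+ library, 2595, against 3200 to 3287.

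The other 3 were from different animals. *Gzmc* was 870 in the DP library of KO animal 3, against 181 to 260. *Gzma* was 1099 in the CD4+ library of WT animal 6, against 1304 to 1317. *Nkg7* was 44610 in the CD8+ library of WT animal 2, against 46786 to 47076.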

How the results depend on the processing

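No result called between groups for the 10 genes changed direction under any alternative. Of the 70 results (10 genes in 7 comparisons), 27 were called, and all 52 reversals among the alternatives fell on results that were not called. The cause was not tested for any value below. The filter on low counts removed none of the 10 genes, and kept 1 of 8 chromosome 14 cluster genes between KO and WT CD4+ and 3 between KO and WT CD8+ cells. Whether depth limits other values was not tested.

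Counts over all genes moved by more than 1.5 times as follows. The joint fit of 20 libraries gave 1285 between KO and WT CD4+, 2014 between KO and WT CD8+ cells (with 1 member), 1453 for DP against KO CD4+, 1595 and 884 for CD8+ against CD4+ in WT and KO, and 1 for the interaction. DESeq2 on whole reads gave 3 and 729 for DP against KO CD8+ and KO CD4+, 959 for KO CD8+ against CD4+ and 21 for the interaction, edgeR gave 1 and no filter 7 for the interaction.

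With the replicate number as a block, 26 genes and 0 members passed between KO and WT CD4+ cells and 89 genes and 0 members between KO and WT CD8+ cells. There equal numbers, 2 and 3, name different animals, and r between them was 0.0696 to 0.0846 in CD4+ and -0.0024 to 0.099 in CD8+ cells, so they share only a number. That block turned *Gzmk* to 0.050 and *Prf1* to 0.12 in CD8+ cells. Within a genotype, where the pairing is of animals, the block gave 860 genes for DP against KO CD4+ and 2305 for KO CD8+ against CD4+. For the interaction, with KO and WT animals of equal number kept apart in the block, it gave 173 genes and 1 member. Beyond the calls given with the results, it changed no other call of a member within a genotype or in the interaction.

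Quantile normalization turned *Nkg7* to -0.086 and *Srgn* to -0.12 between KO and WT CD4+, and *Gzmb* and *Nkg7* to -0.049 and -0.045 between DP and KO CD8+ cells. The alternatives with all libraries gave -0.56 to -0.22 for *Nkg7* between KO and WT CD8+ cells, against -0.35 in the main test. No scaling moved the share of higher calls by over 10 percentage points or the median of all genes by over 0.1 between KO and WT cells.

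With a library, or all libraries of an animal, left out, the counts of genes and of members ran from 628 to 2963 and 1 to 6 for KO against WT CD4+, 1633 to 4092 and 1 to 5 for KO against WT CD8+, 40 to 279 and 1 to 5 for DP against KO CD4+, 92 to 486 and 1 to 7 for KO CD8+ against CD4+, and 0 to 5 genes for the interaction. In WT cells CD8+ against CD4+ had 4501 to 5630 and 9 to 10. Members whose sign turned with a library or animal left out had these log2 ranges. Between KO and WT CD4+ cells, *Gzmm* ran from -0.090 to 0.62 and *Nkg7* from -0.055 to 0.11. Between KO and WT CD8+ cells, *Gzmk* ran from -0.53 to 0.012 and *Prf1* from -0.28 to 0.13. Between DP and KO CD8+ cells, *Gzma* ran from -0.15 to 1.00, *Gzmb* from -0.19 to 0.30, *Gzmk* from -0.44 to 0.26, *Gzmm* from -0.53 to 0.24, *Prf1* from -0.28 to 0.18, *Nkg7* from -0.10 to 0.30, *Lamp1* from -0.21 to 0.059 and *Fasl* from -0.057 to 0.14. Between DP and KO CD4+ cells, *Gzmc* ran from -0.31 to 0.59 and *Gzmm* from -0.10 to 0.67. Between KO CD8+ and CD4+ cells *Lamp1* ran from -0.25 to 0.000694, and in the interaction *Gzmk* from -0.046 to 0.69 and *Gzmm* from -0.42 to 0.29.

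Without all libraries of animal 2, chosen after seeing the data, *Gzma* passed in KO cells for CD8+ against CD4+ (2.85, limma adjusted p = 0.0212) and for DP against CD4+ (3.33, 0.0400). Leaving out an animal also lost calls. In both of these comparisons *Fasl* lost its call with each of the 4 animals left out in turn (limma adjusted p between 0.0657 and 0.166). *Gzmk* was not called in either without animal 1, 3 or 4 (0.107 to 0.203). *Gzmb* was not called without animal 3 or 4 for CD8+ against CD4+ (0.121 and 0.102), nor without animal 1, 3 or 4 for DP against CD4+ (0.0660 to 0.155). *Srgn* was lost without animal 1, 3 or 4 (0.103 to 0.165) and *Nkg7* without animal 3 (0.0530) for CD8+ against CD4+, while *Prf1* was called without each animal in both. In WT cells *Gzmm* was lost without animal 2, 3 or 6 (0.144 to 0.158).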
